A study of Drosophila suzukii with 24 samples.

Results

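The expressed genes with the longest loci were taken from the 13584 gene models listed for the spotted wing drosophila, Drosophila suzukii, a fly that lays its eggs in ripening soft fruit. A locus is the stretch of scaffold that the tables give for a gene model, introns included. Members had to lie from 1 to under 1000 FPKM (fragments per kilobase of transcript, scaled to the mapped fragments of a library) in untreated flies of both populations. They also had to be at most 4 times as high in untreated lab flies as in untreated field flies. The 150 genes with the largest field over lab ratio were left out. That ranking took only genes at 10 FPKM or more in untreated field flies and from 1 to under 1000 FPKM in untreated lab flies. Of the 7605 genes that met these limits, the 150 with the longest loci are the members, and the other 7455 serve as the comparison with the same limits on level. The members were therefore chosen on locus length and on untreated levels, so neither is a finding, and every fold change over untreated flies shares a value with the choice.

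The series profiled whole adult wild type flies, 5 to 7 days old, with RNA sequencing; 24 samples make up 8 groups of 3, and each sample pools 10 individuals. A field population and a lab population were each left untreated or exposed to spinosad, malathion or zeta-cypermethrin, and the flies taken were those alive after a dose that kills 50%. Spinosad acts on nicotinic acetylcholine receptors, malathion inhibits acetylcholinesterase and zeta-cypermethrin acts on voltage-gated sodium channels, so all 3 act on the nervous system. The labels give neither sex nor a batch, and nothing in them says that replicates were separate exposures, so p-values may cover technical spread alone. Each deposited table holds 1 FPKM value per group, pooled by the authors over the 3 replicates, so no standard deviation can be given. Within a population the same untreated flies serve all 3 comparisons, and the field and lab tables were scaled separately. With no counts in the tables, sequencing depth is unknown. In whole flies, fewer cells of a type and less RNA per cell cannot be told apart.

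A long locus in a fly is mostly intron. RNA polymerase has to cross a gene from end to end before the full transcript can be released. The introns are spliced out, so the messenger RNA can be short even where the locus is long. In Drosophila melanogaster many of the longest genes encode regulators of development, ion channels, receptors and cell adhesion proteins of the nervous system. The identifiers of these tables carry no gene names, and 0 of the 150 members were found in the reference gene table, so no function is given for any member.

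Member loci ran from 23292 to 112611 bases, with a median of 29692 bases, against a median of 2836 bases for the other genes within the limits. At the limit, DS10_00008466 (scaffold 34, 459986 to 483277) was the last member, and DS10_00008469 (scaffold 51, 462766 to 485830) was the first gene outside, with 23065 bases. The members lay on 58 of 902 scaffolds. Scaffold 1 held 26 of them, or 17.3% against 14.5% of the other genes. Scaffold 3 held 17 (11.3% against 8.24%), scaffold 2 held 16 (10.7% against 12.5%) and scaffold 6 held 10 (6.67% against 3.45%). Each gene model counts here, also where several share a locus, as at a locus of 5 models on scaffold 6.

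The locus in the tables is not always that of 1 gene. Distinct loci never overlapped (0 of 12807), whereas 1455 gene models were listed at exactly the locus of another model. Gene models that overlap therefore appear under 1 joint interval, which can be longer than any of them. Of the 150 members, 59 shared their locus with another gene model (39.3%, against 11.7% of the other genes), and 91 were alone at theirs. The members stood at 127 distinct loci, of which 18 held at least 2 members. Results are given below for members alone at their locus as well, a split made after seeing the data.

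Untreated levels were low to moderate. The members' median was 16.4 FPKM in untreated field flies (lowest 1.03, highest 838) and 21.4 FPKM in untreated lab flies (2.40 to 576). The other genes within the limits had medians of 36.5 and 30.4 FPKM. Thus the field over lab ratio had a median of -0.29 on the log2 scale in the members and 0.27 in the other genes, and 56 members (37.3%) were more than 2 times as high in the lab as in the field, against 16.2% of the others. These are the values that chose the members, and they carry no test.

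The survivors' levels did not enter the choice. The members' median was 22.9 FPKM in field spinosad, 21.1 in field malathion and 24.4 in field zeta-cypermethrin survivors. In lab survivors it was 20.7, 22.4 and 23.5 FPKM in the same order. All 6 survivor groups thus lay near untreated lab flies at the median, and untreated field flies lay below them. Untreated field flies held the lowest of the 8 group values for 66 members (44.0%) and the highest for 45. Among the other genes this was turned around, with untreated field flies lowest for 1639 and highest for 3959 of them (53.1%). These counts use the untreated values that chose the members, so they carry no test.

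**Figure D1:**
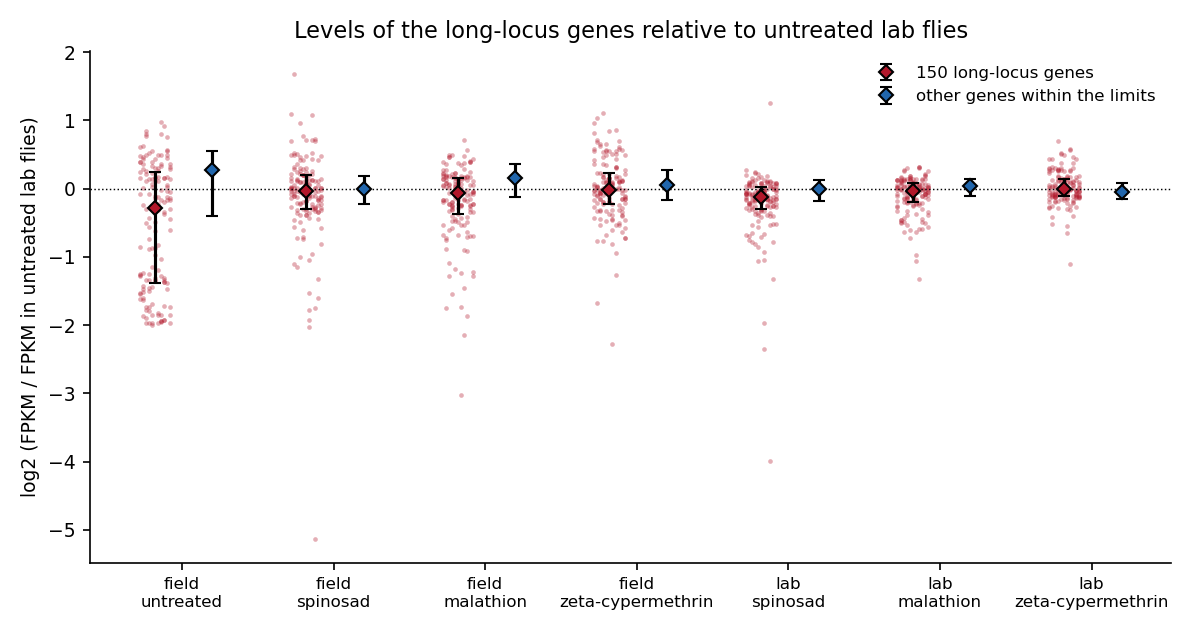
Level of each gene in 7 groups over its level in untreated lab flies, on the log2 scale. Red points are the 150 members, diamonds are medians with bars from the lower to the upper quartile, red for members and blue for the 7455 other genes within the limits; the sharp lower edge at -2 in untreated field flies is the limit of the choice, and the members' median there is -0.29 against 0.27.

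Survivors of 1 insecticide were also set side by side between field and lab, which uses no untreated value. The log2 ratio of field over lab survivors had member medians of 0.036 (spinosad), -0.036 (malathion) and -0.024 (zeta-cypermethrin). The other genes had medians of -0.0073, 0.12 and 0.076. Members thus lay slightly below the other genes under malathion and zeta-cypermethrin and slightly above them under spinosad. These ratios join tables scaled separately and were not tested.

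Within a gene, the highest of the 8 groups stood above the lowest by a median factor of 1.95 in the members, from 1.09 to 35.7. These ranges join separate tables, and for some members the spinosad tables list other untreated values, as given further below. Without untreated field flies the median factor was 1.54. For the other genes with no group listed at 0, the factors were 1.72 and 1.46. Leaving out that 1 group brought 114 of the 150 members (76.0%), in place of 78 (52.0%), to within a factor of 2. Among those other genes the shares were 78.0%, in place of 65.3%. Leaving out a group can only narrow such a range, and no other group was left out by itself for comparison. The untreated field values also chose the members, so these counts carry no test.

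Field flies that survived spinosad had more long-locus genes higher than lower. Of 149 members tested by the authors (Cuffdiff, q of 0.05 or less), 57 were called (38.3%, beside 36.2% of all tested genes). The 50 rises included 48 of 2-fold or more, and among the 7 falls 0 reached 2-fold. Over all tested genes 2403 of 2579 rises and 120 of 1027 falls did, so large rises and small falls were not particular to members. The share higher was 33.6% of tested members, against 25.9% of all tested genes and 16.7% of the other genes within the limits. Lower calls made up 4.70% of members, against 10.3% of all tested genes and 12.5% of the others. The median log2 fold change was 0.23 in the members, -0.06 over all tested genes and -0.26 in the other genes within the limits.

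Malathion survivors from the field showed the same order with smaller values. Of 150 members 41 were called (27.3%, beside 22.0% of all tested genes), 37 higher and 4 lower, which is 24.7% and 2.67%. Over all tested genes the shares were 17.8% and 4.22%, and in the other genes within the limits 9.45% and 4.97%. The members' median log2 fold change was 0.055, close to 0, against -0.058 over all tested genes and -0.15 in the others.

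Zeta-cypermethrin gave the most calls among members of the field population, 64 higher and 25 lower of 150 (59.3%, beside 48.3% of all tested genes). The higher share of 42.7% stood beside 27.8% of all tested genes and 18.3% of the others, and the lower share of 16.7% beside 20.4% and 27.6%. At least 2-fold rises numbered 50, and no fall reached 2-fold (0). Over all tested genes 2540 of 2975 rises and 81 of 2186 falls reached 2-fold. The median log2 fold change was 0.29 in members, 0.01 over all tested genes and -0.23 in the others.

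In lab flies almost none of the members were called. Spinosad survivors had 0 higher and 1 lower of 150 (0.667% called, beside 3.63% of all tested genes in either direction), beside 2.02% and 1.60% of all tested genes. With Cuffdiff's unadjusted p under 0.05 the members counted 0 higher and 9 lower (6.0%), beside 5.01% and 4.89% of all tested genes. Malathion survivors had 0 higher and 7 lower (4.67% called, beside 5.63% of all tested genes, of which 2.98% higher and 2.65% lower), and 0 and 16 (10.7%) at an unadjusted p under 0.05, beside 4.99% and 6.56% of all tested genes. Zeta-cypermethrin survivors had 1 higher and 1 lower (1.33% called, beside 2.93% of all tested genes), beside 1.79% and 1.14% of all tested genes. Here an unadjusted p under 0.05 counted 8 higher and 2 lower (5.33% and 1.33%), beside 6.03% and 3.13% of all tested genes. The members' median log2 fold changes were -0.051, -0.037 and 0.034, and those of the other genes within the limits 0.010, 0.033 and -0.012. Whether a member's fold change differed between field and lab was not tested.

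**Figure D2:**
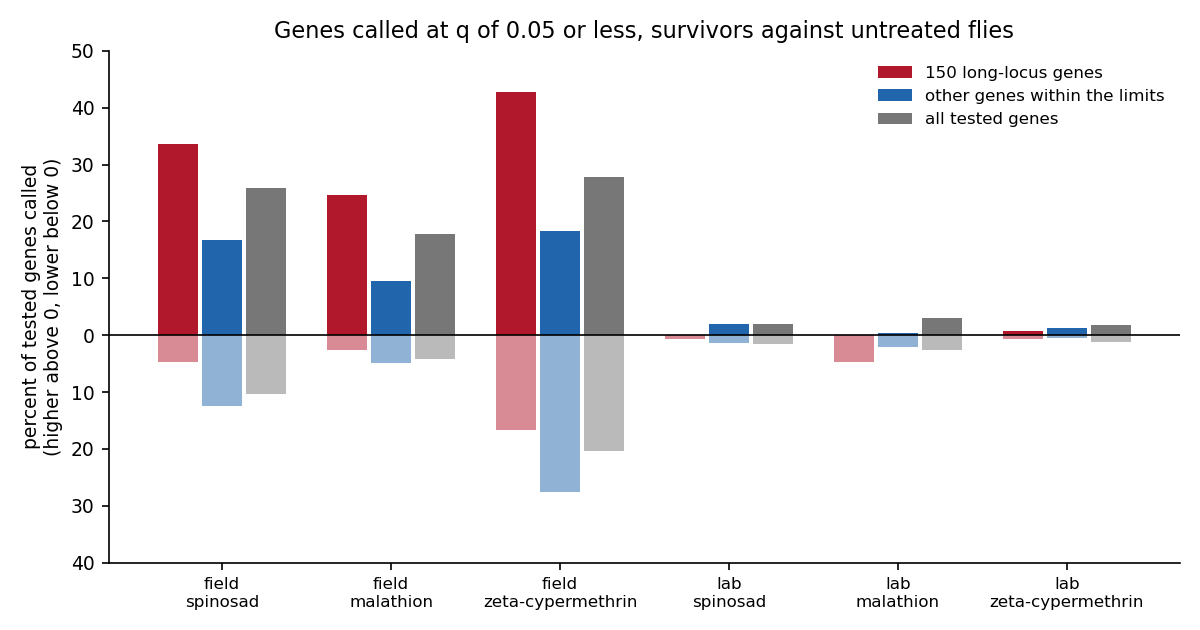
Share of tested genes called at q of 0.05 or less in each of the 6 comparisons, higher calls drawn upward and lower calls downward in a paler shade. Bars are the 150 members (red), the other genes within the limits (blue) and all tested genes (grey); in the 3 field comparisons the members' higher share is 33.6%, 24.7% and 42.7%, above both other bars, and in the 3 lab comparisons it is at most 0.667%.

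The level floor of the choice bears on these field medians. With a floor of 5 FPKM in both untreated groups in place of 1, the members' medians were -0.0047 under spinosad, -0.12 under malathion and -0.10 under zeta-cypermethrin. They stayed above the other genes under that floor, by 0.33, 0.066 and 0.18 on the log2 scale. The members' fold changes also varied with their level. Among the 38 members under 10 FPKM in untreated lab flies the median log2 fold changes in the field were 1.21, 0.65 and 1.00 in the order spinosad, malathion, zeta-cypermethrin, against 0.42, 0.18 and 0.42 in the 1444 other genes of that level. From 10 to under 30 FPKM they were 0.36, 0.22 and 0.52 in 52 members, against -0.32, -0.17 and -0.27. From 30 to under 100 FPKM they were 0.06, -0.04 and -0.0051 in 49 members, against -0.36, -0.19 and -0.32. In the 11 members at 100 FPKM or more they were 0.10, -0.30 and -0.26, against -0.13, -0.11 and -0.08. These classes are set by the untreated lab level alone. Within them members were lower than the other genes in untreated field flies, the divisor of the fold changes: the median log2 field over lab ratio was -1.25 against -0.38, -0.58 against 0.36, -0.08 against 0.36 and -0.14 against 0.13, from the lowest class to the top. The choice used that ratio, so the gaps in fold change are not a comparison at equal level.

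Across all genes within the limits the field fold changes followed the length of the locus. Under spinosad the median log2 fold change was -0.34 for loci of 2 to under 5 kb, -0.25 for 5 to under 10 kb, -0.13 for 10 to under 20 kb and 0.13 for 20 to under 50 kb. Malathion gave -0.18, -0.15, -0.11 and -0.02 over the same classes, and zeta-cypermethrin -0.30, -0.22, -0.14 and 0.10. Loci under 2 kb did not follow the order: those under 1 kb had medians of -0.13, -0.083 and -0.028, and those of 1 to under 2 kb -0.31, -0.17 and -0.26. The median level in untreated field flies fell along the same classes, from 39.1 FPKM at 2 to under 5 kb to 19.9 FPKM at 20 to under 50 kb. The median log2 field over lab ratio of untreated flies fell as well, at 0.33, 0.25, 0.12 and -0.13. Between field and lab survivors that ratio was -0.03, -0.02, 0.01 and 0.03 under spinosad. It was 0.12, 0.07, 0.03 and -0.0074 under malathion, and 0.06, 0.02, -0.0015 and -0.03 under zeta-cypermethrin. The part of the untreated values in the order was not tested. In the lab the medians of all classes from under 1 kb to 20 to under 50 kb lay between -0.040 and 0.047.

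**Figure D3:**
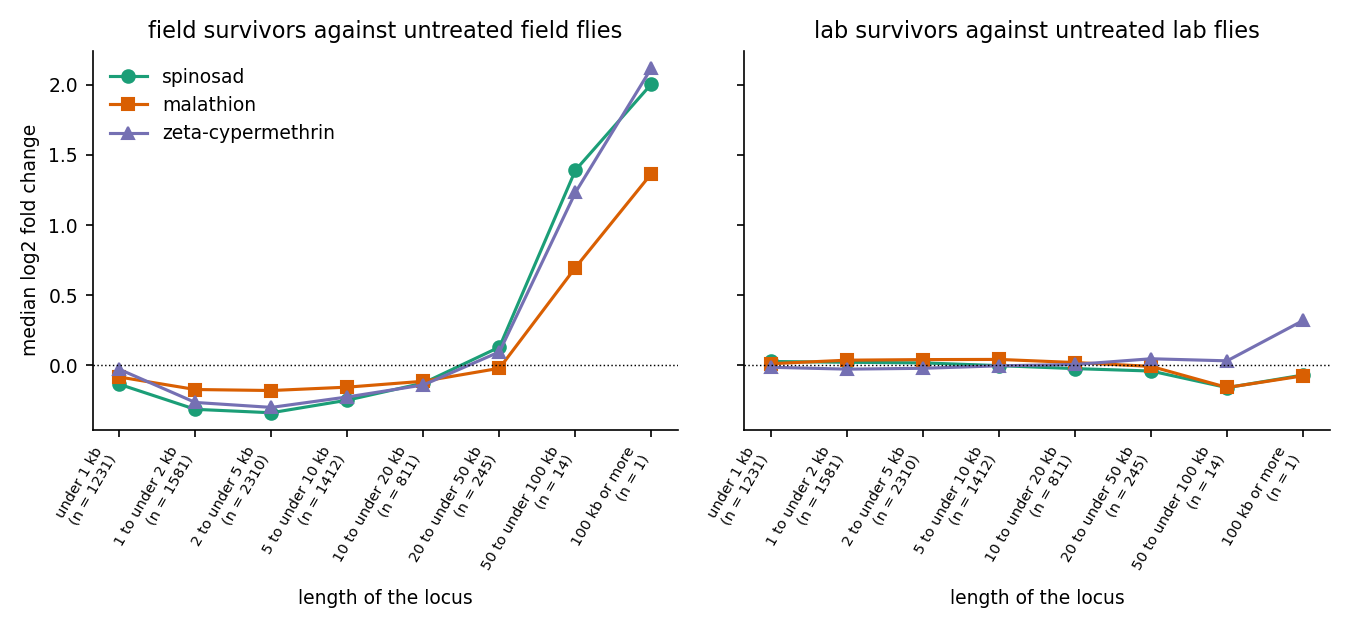
Median log2 fold change of survivors over untreated flies for genes within the level limits, by length of the locus, with the number of genes in each class under the axis. Field comparisons on the left rise from -0.34, -0.18 and -0.30 at 2 to under 5 kb to 0.13, -0.02 and 0.10 at 20 to under 50 kb; the last classes hold 14 genes and 1 gene, and the lab lines on the right lie between -0.040 and 0.047 up to 50 kb, reaching -0.16 and 0.32 in the last classes.

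Most of the longest loci were called higher in the field. Of the 15 members of 50 kb or more, 11 were called higher under spinosad, 9 under malathion and 11 under zeta-cypermethrin, beside 25.9%, 17.8% and 27.8% of all tested genes, with median log2 fold changes of 1.46, 0.70 and 1.27. None (0) was called lower in the field by Cuffdiff, and 0 fell at an unadjusted p under 0.05. Their median level in untreated field flies was 5.77, 5.73 and 5.58 FPKM in the 3 tables, and 15.8, 11.2 and 15.4 FPKM in the survivors. In the lab 0 of the 15 were called in any comparison, where 3.63%, 5.63% and 2.93% of all tested genes were, and at an unadjusted p under 0.05 there were 2 lower under spinosad, 2 lower under malathion and 1 higher under zeta-cypermethrin. The class holds few genes and its members rank low in untreated field flies, which the choice used. DS10_00005760, DS10_00005761, DS10_00005762 and DS10_00005763 share a joint locus of 63139 bases, which can be longer than any of them. DS10_00005763 was not tested in field spinosad survivors.

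DS10_00004419 (scaffold 3, 9540852 to 9653462) has the longest locus, 112611 bases, and is alone at it. It stood at 12.2 FPKM in untreated field flies, at 49.4 after spinosad, 31.4 after malathion and 51.5 after zeta-cypermethrin. Lab flies had 35.2 FPKM untreated and 34.1, 33.4 and 42.8 after the 3 insecticides. Untreated field flies were the lowest of the 8 groups, and field survivors of spinosad and zeta-cypermethrin were the highest. The authors' deposited tables give log2 fold changes of 2.00, 1.37 and 2.12 in the field (q = 4.5e-04, 5.1e-04 and 2.7e-04, the smallest q of each table) and of -0.07, -0.07 and 0.32 in the lab, none of them called.

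DS10_00000671 (scaffold 1, 7028576 to 7117834), with the second longest locus, was weak in untreated field flies, at 1.03 FPKM, just above the floor of the choice. Survivors in the field had 10.3 FPKM after spinosad, 3.62 after malathion and 6.55 after zeta-cypermethrin, and the 4 lab groups had 3.21, 2.77, 3.56 and 3.87 FPKM, untreated flies first. The spinosad survivors of the field stood above every lab group. In the authors' deposited tables its field log2 fold changes were 3.32, 1.81 and 2.70, all called, and the first of them was the largest rise of any member under spinosad.

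DS10_00000257 (scaffold 1, 3279414 to 3367652) comes next in length. It had 5.73 FPKM in untreated field flies, 15.8 after spinosad, 9.28 after malathion and 14.5 after zeta-cypermethrin. In the lab it had 19.7 FPKM untreated and 16.1, 14.6 and 17.2 in survivors. Here all 3 field survivor groups stayed under untreated lab flies. The authors' deposited tables list field log2 fold changes of 1.46, 0.70 and 1.38, called in each case, and lab values of -0.32, -0.43 and -0.16, not called.

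Further members with large rises had shorter loci. DS10_00005512 (scaffold 6, 672749 to 704506) had 4.18 FPKM in untreated field flies and 28.2, 20.3 and 31.3 in field survivors, in the order spinosad, malathion, zeta-cypermethrin. The lab values were 14.5 FPKM untreated and 13.3, 17.9 and 23.4 in survivors. All 3 field survivor groups were above untreated flies of either population. In the authors' deposited tables it rose by 2.78, 2.28 and 2.94 on the log2 scale in the field, the largest member rise under malathion and zeta-cypermethrin. It was also the 1 member called higher in a lab comparison, under zeta-cypermethrin (log2 fold change 0.73, q = 0.0262 in the authors' deposited table).

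DS10_00006802 (scaffold 8, 2925663 to 2954581) had the second largest called rise under each insecticide in the field. It went from 6.72 FPKM in untreated flies to 55.0 after spinosad, 29.0 after malathion and 47.3 after zeta-cypermethrin. The lab groups had 26.1, 21.9, 26.6 and 31.4 FPKM, untreated first. The authors' deposited tables give field log2 fold changes of 3.02, 2.11 and 2.85, called in each, and no lab call.

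**Figure D4:**
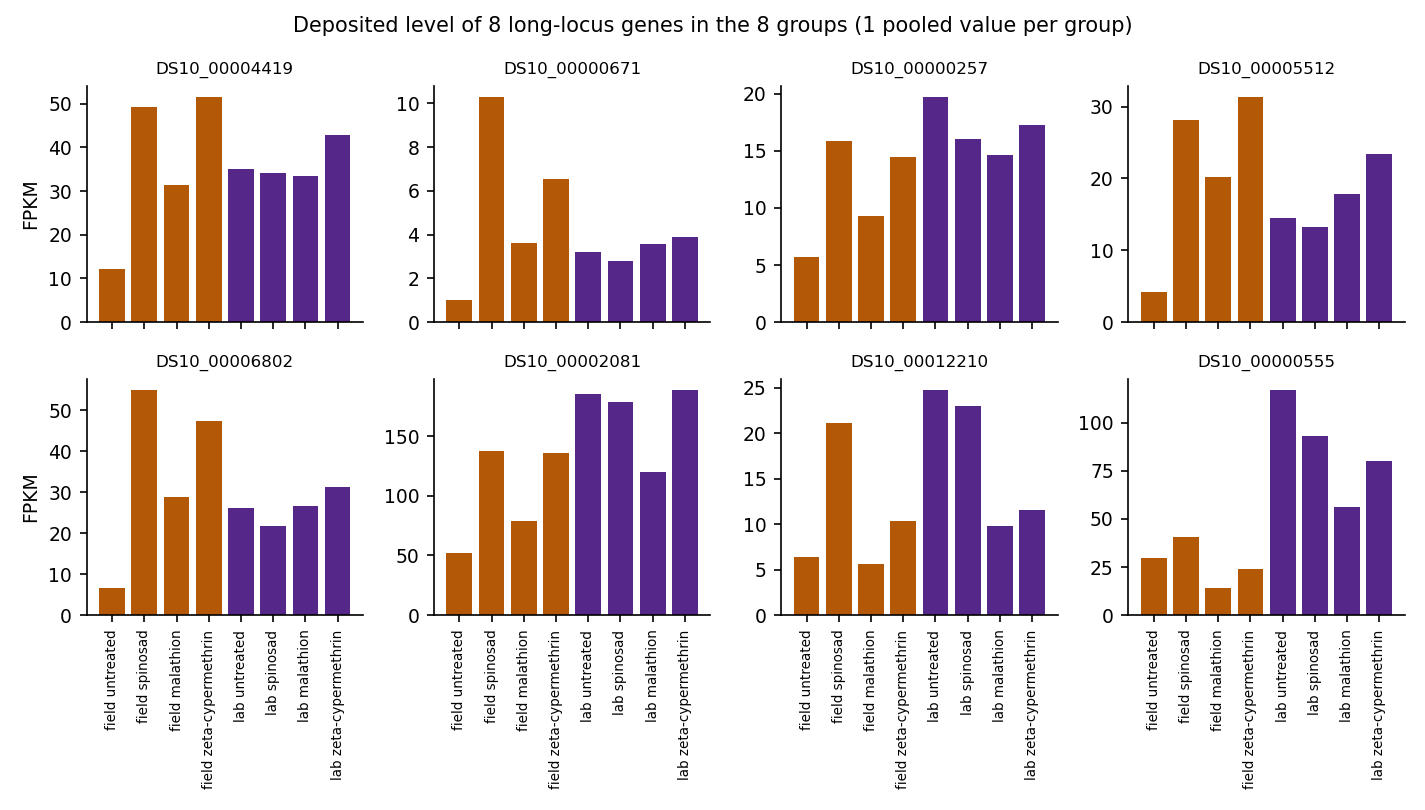
Deposited FPKM of 8 members in the 8 groups, field in orange and lab in purple, 1 pooled value per group with no error bar. Untreated field flies are the lowest group in the first 6 panels, such as 12.2 FPKM for DS10_00004419, and DS10_00000555 has its lowest bars in malathion survivors within each population, 14.3 and 56.2 FPKM.

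Members called in both populations numbered 7. That is 4.70% of the 149 tested in all 6 comparisons, beside 4.75% of the other genes within the limits and 6.14% of all genes so tested. Of the 7, 5 were called higher in a field comparison and lower in a lab comparison (3.36%, beside 1.99% and 2.89%). DS10_00012210 (scaffold 350, 34421 to 74356, a locus of 3 gene models) had 6.44 FPKM in untreated field flies and 21.2, 5.62 and 10.3 in field survivors, in the same order. In the lab it had 24.7 FPKM untreated and 23.0, 9.83 and 11.5 in survivors. Malathion survivors were low in both populations, and spinosad survivors were near untreated lab flies in both. The authors' deposited tables give log2 fold changes of 1.84, -0.20 and 0.72 in the field, the first and last called, and of 0.01, -1.33 and -1.07 in the lab, the last pair called (q = 0.0019 and 0.0032). These were the largest falls of any member in lab malathion and zeta-cypermethrin survivors.

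DS10_00002081 (scaffold 2, 653558 to 684309, also 3 gene models) was 1 of 5 members called in 4 of the 6 comparisons, DS10_00005512, DS10_00009567 and DS10_00012210 among them. It had 52.4 FPKM in untreated field flies and 138, 78.7 and 135 in field survivors. The lab values were 185 FPKM untreated and 178, 120 and 188 in survivors. Malathion survivors were the lowest of the survivor groups in each population. The authors' deposited tables list rises of 1.36, 0.59 and 1.41 on the log2 scale in the field and a fall of -0.63 after malathion in the lab (q = 0.0104).

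DS10_00009567 (scaffold 156, 28196 to 69269) was the 1 member called in lab spinosad survivors, at 14.6 FPKM untreated and 10.5 FPKM after spinosad in the lab (log2 fold change -0.52 in the authors' deposited table). Malathion survivors of the lab were also lower, at 9.54 FPKM (-0.61 in the authors' deposited table, q = 0.0076), and zeta-cypermethrin survivors had 14.1. In the field it had 5.36 FPKM untreated and 9.57, 6.43 and 9.06 in survivors, and the authors' deposited tables call it higher after spinosad (0.82) and after zeta-cypermethrin (0.80).

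Falls among members were mostly under 2-fold, and so were the field falls over all tested genes. DS10_00000555 (scaffold 1, 6018181 to 6045302) was the 1 member called lower at 2-fold or more in a field comparison. It had 29.9 FPKM in untreated field flies, 40.6 after spinosad, 14.3 after malathion and 24.2 after zeta-cypermethrin, and 117, 93.1, 56.2 and 80.1 FPKM in the lab groups in the same order. Malathion survivors were the lowest group of each population. In the authors' deposited tables the malathion log2 fold change was -1.06 in the field (q = 5.1e-04) and -1.06 in the lab (q = 0.0019), and the other 4 comparisons were not called.

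DS10_00006082 (scaffold 7, 2417877 to 2449901) had 35.7 FPKM in untreated field flies and 28.8, 24.6 and 23.4 in field survivors, against 19.4 to 25.1 FPKM over the 4 lab groups. Untreated field flies were thus the highest group. The authors' deposited tables call its falls under malathion (-0.54, q = 0.0018) and zeta-cypermethrin (-0.57, q = 7.2e-04). DS10_00007486 (scaffold 14, 499901 to 534115, 2 gene models) was also highest in untreated field flies, at 17.3 FPKM against 9.81, 14.0 and 11.3 in field survivors and 10.5 to 13.7 over the lab groups. It fell by 0.70 under spinosad and by 0.58 under zeta-cypermethrin on the log2 scale in the authors' deposited tables (q = 0.0219 and 9.2e-04).

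The largest falls under zeta-cypermethrin in the field belonged to DS10_00008733 (scaffold 251, 163195 to 206732, 3 gene models), from 23.1 to 12.8 FPKM, and DS10_00011663 (scaffold 228, 22222 to 47503), from 7.61 to 4.33 FPKM. The authors' deposited table gives -0.84 (q = 0.0200) and -0.81 (q = 5.0e-04). In lab flies neither was called, with 17.3 to 19.5 FPKM and 2.66 to 5.52 FPKM over the 4 groups. The low end of the second range lies in the spinosad table, which also lists its untreated flies lower, at 2.48 against 4.59 FPKM.

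The strongest members by median over the groups were DS10_00009497 and DS10_00002083. DS10_00009497 (scaffold 65, 3 to 24372) begins at the very edge of its scaffold. It stood at 626 FPKM in untreated field flies and at 261, 491 and 398 in field survivors, and at 576, 369, 525 and 509 in the lab groups. Spinosad survivors were lowest in both populations, but the spinosad tables also list its untreated flies lower, at 432 FPKM in the field and 390 in the lab. Within the authors' deposited spinosad table its field fall was -0.73 on the log2 scale (q = 0.0220), and zeta-cypermethrin gave -0.61 (q = 0.0017) in the authors' deposited table. DS10_00002083 shares the locus of DS10_00002081. It had 838 FPKM in untreated field flies, 416, 661 and 500 in field survivors and 396 to 486 over the lab groups, and no comparison called it. Among the 8 groups, untreated field flies were thus the lowest for DS10_00002081 and the highest for DS10_00002083.

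At the lower end were DS10_00007102 (scaffold 9, 1261463 to 1285898), with 1.09 FPKM in untreated field flies, 1.68 to 2.26 in field survivors and 2.18 to 3.11 over the lab groups, and DS10_00002063 (scaffold 2, 385596 to 420818, 2 gene models), with 1.56 to 2.75 FPKM over the field groups and 1.79 to 3.14 over the lab groups. The authors' deposited tables call DS10_00007102 higher in the field under spinosad (1.07, q = 0.0182) and zeta-cypermethrin (0.78, q = 0.0486), and DS10_00002063 in none. For DS10_00002063 the low end of both ranges lies in the spinosad tables. These also list its untreated flies lower, at 0.601 against 2.34 FPKM in the field and 1.86 against 3.14 FPKM in the lab.

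**Figure D5:**
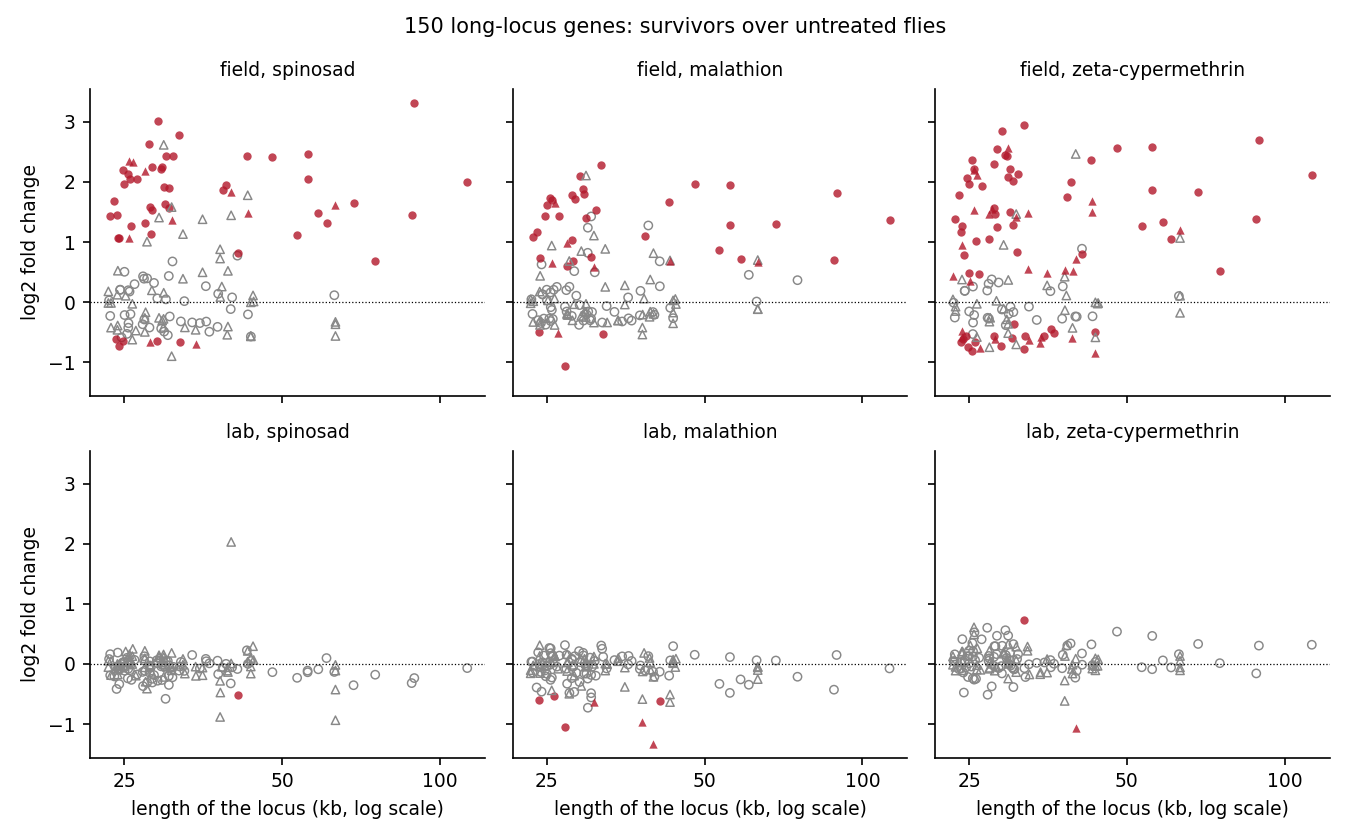
Log2 fold change of survivors over untreated flies for each of the 150 members against the length of its locus on a log axis, 1 panel per comparison. Filled red symbols were called at q of 0.05 or less and open grey ones were not, and circles are the 91 members alone at their locus, triangles the 59 that share it. The upper panels (field) hold 50, 37 and 64 higher calls, and the lower panels (lab) 0, 0 and 1.

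Members alone at their locus carried most of the higher calls. In the field 42 of the 91 were higher under spinosad (46.2%), 31 under malathion (34.1%) and 45 under zeta-cypermethrin (49.5%), with median log2 fold changes of 0.43, 0.20 and 0.46. Of the 59 members that share a locus, 8, 6 and 19 were higher (13.8% of 58 tested, 10.2% and 32.2%), with medians of 0.08, -0.03 and 0.04. Both kinds had loci of about the same length, with medians of 29.4 and 30.8 kb. Their untreated levels differed in the field, 12.2 against 23.7 FPKM, and less so in the lab, 21.4 against 24.1 FPKM. The part of level in this gap was not tested. Among other genes within the limits, 17.7%, 9.87% and 19.1% of those alone at their locus were higher, and 9.06%, 6.29% and 12.6% of those sharing one.

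Members at the same locus often differed. Over the 18 loci with at least 2 members, the highest member stood a median 2.98-fold above the lowest in untreated lab flies, and up to 75.6-fold. The field fold changes of a locus had the same sign at 11 of 18 loci under spinosad, 5 under malathion and 12 under zeta-cypermethrin. An example is the locus of 5 gene models on scaffold 6 (3216074 to 3279212), of which 4 are members. In untreated field flies these stood at 14.7 (DS10_00005760), 93.2 (DS10_00005761), 12.6 (DS10_00005762) and 5.01 FPKM (DS10_00005763), and in untreated lab flies at 37.6, 78.3, 9.0 and 12.6 FPKM. The authors' deposited tables call DS10_00005760 higher in the field under all 3 insecticides (log2 fold changes 1.61, 0.67 and 1.20). DS10_00005761 had -0.37, -0.12 and -0.18 in the authors' deposited tables, and it, DS10_00005762 and DS10_00005763 were not called in the field. The locus and its models were picked after their values were seen.

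The spinosad tables list other untreated values than the remaining tables for some members. The untreated values of the malathion and zeta-cypermethrin tables differed by 1 common factor, and all 150 members kept to it within 0.1 on the log2 scale. The spinosad tables had 15 members in the field and 17 in the lab whose ratio lay over 0.5 (log2) from the median ratio of the other genes (10.0% and 11.3%, against 8.53% and 8.13% of the other genes), although the untreated flies are the same. The shares were 15.3% and 13.6% of members sharing a locus and 6.59% and 9.89% of those alone at it. The greatest gaps were those of DS10_00005763, at 5.01 FPKM in the malathion table and 0.530 in the spinosad table for untreated field flies (12.6 and 1.52 in the lab), and of DS10_00000899 (scaffold 1, 9809534 to 9838628, 3 gene models), at 4.30 and 0.757 FPKM (7.65 and 1.35 in the lab). Neither was called in any comparison. The 35.7-fold range quoted above as the largest among members is that of DS10_00005763 and comes with this gap between tables, so the levels of such members can be compared only within a table.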

How the data were processed

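Whole-fly messenger RNA libraries were paired-end and stranded, per the labels' protocols. The submitters' processing notes list FastQC, Cuffdiff, TopHat2 2.0.13 and Cufflinks 2.2.1. Build and annotation: not given in the sources used here. The authors deposited 6 tables of 13584 gene models with 1 FPKM value per group, their log2 fold change (survivors over untreated), a test statistic (a score), and p-values with q-values adjusted over the genes tested in a table, per the file headers. The group columns of the malathion and the zeta-cypermethrin tables carry generic names and were read as untreated first, from the order in the tables' names. Their untreated values were set beside the spinosad tables, whose control column is named (across genes, Pearson r of log2 levels was 0.987 for field and 0.986 for lab tables). The other column was not correlated in the same way, so these values alone do not tell the 2 columns apart. Between the malathion and zeta-cypermethrin tables of a population, the column read as untreated had a Pearson r of 1.0.

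Calls are genes whose deposited q is 0.05 or less; no test of a list was made. Untreated levels are those of the malathion tables unless stated. Locus starts reach 0 in the deposited tables, so 1 was added to print them as counted from 1; lengths are the deposited end minus start. With Python 3.11.15 and pandas 2.3.3 the rule for members was applied, tested on simulated data, and counts and medians were taken. Genes without a finite log2 fold change, listed at 0 in only 1 of the 2 groups, were left out of fold change medians. Medians of FPKM kept values of 0. Members, length classes and alternatives were chosen with earlier results of these data known. Named members are, per comparison, the 2 called rises and 2 called falls of largest size, plus the 3 longest loci, the members just inside and outside the limit, the 2 highest and 2 lowest median levels, the 2 with the most calls (ties by ID) and the 2 with the largest untreated gap between tables. The files do not pair the IDs with names (0 of 13584 were found among 18239 reference genes), and no sequence is shown.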

Additional observations from a re-analysis of the deposited data

How the results depend on the processing

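No paired analysis was possible because the tables hold 1 pooled value per group; for the same reason no replicate could be left out. The higher share of called members in the field exceeded that of the other genes under every set of members tried. This held for the 150 longest loci holding 1 gene model as well (41.6%, 32.7% and 45.3%). The higher share did not always exceed that of all tested genes, which carry no floor. With a floor of 5 FPKM it was 19.5% under spinosad, below the 25.9% of all tested genes. Under malathion 24 of 150 members were then called higher, also below the 17.8% of all tested genes. Zeta-cypermethrin gave 29.3%, beside 27.8%. The median log2 fold changes of the field moved more. Recentred on the other genes they were 0.49 (spinosad), 0.21 (malathion) and 0.52 (zeta-cypermethrin), with no called member changing direction. With a floor of 5 FPKM they were -0.0047, -0.12 and -0.10, all below 0. Under spinosad 24.8% of members were then called in place of 38.3%, beside 36.2% of all tested genes. The 100 longest loci gave 0.41 for spinosad and 0.40 for zeta-cypermethrin, the 300 longest 0.12 and 0.13, and the spinosad tables' untreated values gave 0.18 for zeta-cypermethrin. With the floor of 1 FPKM as the only limit they were 0.79, 0.27 and 0.64. Members alone at their locus gave 0.43, 0.20 and 0.46; this set and the loci holding 1 gene model were chosen after seeing the data. Calls of at least 2-fold were 17.3% under malathion and 33.3% under zeta-cypermethrin in the field. Over all tested genes such calls numbered 1621 higher and 53 lower of 10531, and 2540 higher and 81 lower of 10694. In the lab, where calls are few, the share called under spinosad (0.667%) was 1.68% for 300 loci, 1.33% with a floor of 5 FPKM, 1.33% with the floor of 1 FPKM alone, 1.10% for members alone at their locus, and 0.00% at q of 0.01 or for 2-fold changes. For lab malathion (4.67%) it was 2.00% at q of 0.01 and 1.33% for 2-fold changes. For lab zeta-cypermethrin (1.33%) it was 2.00% for 100 loci, 2.00% with the floor of 1 FPKM alone, 0.667% at q of 0.01 and 0.667% for 2-fold changes. The cause of these shifts was not tested. The other 51 shares, 34 medians and 4 levels moved little: shares by at most 1.5 times, medians and log2 levels by at most 0.1.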

Other observations

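The limits on level left out 145 of the 295 gene models whose loci are as long as the shortest member's. They fall outside the choice because of their untreated values, so their field fold changes are descriptions without a test. Of these, 27 were above 1 FPKM in both untreated groups but over 4 times as high in the lab. Their median levels were 1.97 FPKM in untreated field flies and 12.3, 10.2 and 12.7 in field survivors, in the order spinosad, malathion, zeta-cypermethrin, and 11.4, 8.78, 10.1 and 13.5 in the lab groups, untreated first. In the field 24, 25 and 26 of the 27 were called higher, and 1 was called lower, under malathion; over all tested genes 25.9%, 17.8% and 27.8% were called higher. The choice of these 27 by their low untreated field level bears on that count. The lab comparisons called 1 of the 27 higher each, and 1, 3 and 0 lower. Over all tested genes the lab shares were 2.02%, 2.98% and 1.79% higher, and 1.60%, 2.65% and 1.14% lower.

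A further 48 long loci reached 1 FPKM in the untreated lab group and not in the untreated field group. Their medians were 0.377 FPKM in untreated field flies, 1.91, 1.32 and 1.72 in field survivors, and 1.57, 1.33, 1.60 and 1.87 in the lab groups. In the field 37 of 45 tested, 24 of 43 and 36 of 47 were called higher and 0 lower, by Cuffdiff. Over all tested genes 25.9%, 17.8% and 27.8% were called higher. These 48 were set apart by a low untreated field level, the divisor of the fold changes, which bears on the counts. The 69 long loci under 1 FPKM in both untreated groups were mostly not tested, with 20, 26 and 24 tested in the field, of which 4, 4 and 3 were called higher. No long locus was left out for lying among the 150 largest field over lab ratios or at 1000 FPKM or more (0 in each case).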
